A study of Rattus norvegicus with 12 samples.

Results

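Transcripts of the mitochondrial respiratory chain and ATP synthase were examined in endothelial cells (ECs) of the ductus arteriosus (DA), the fetal vessel that joins the pulmonary artery to the aorta, and of the aorta. The genes were taken by name, as every gene with a single symbol in the array annotation that begins with Nduf, Sdha, Sdhb, Sdhc, Sdhd, Uqcr, Cox followed by a digit, or Atp5. There were 89 such genes out of 14503 genes with a single symbol, and they were covered by 101 probe sets. For each gene the probe set with the highest mean over the arrays was used. Of the 89 genes, 86 reached the mean of a bacterial spike-in control (lys) and were tested. The 3 genes below it were Cox8b, Cox8c and Cox6c-ps1.

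The animals were Wistar rats delivered by caesarean section at term, gestation day 21. The F group was taken before breathing and the N group 30 minutes after it. Cells of the DA or of the descending aorta, called the aorta here, were released by collagenase-dispase and sorted as CD31+ CD45- cells. RNA from pooled tissues was hybridized to 12 Affymetrix Rat Gene 1.0 ST arrays, 3 for each vessel and stage, numbered as replicates 1 to 3. No genotype or drug differed between the groups. A pool stands for many animals, so the spread between arrays is a spread between pools. The deposited values are log2 signals, and all differences below are on that log2 scale. In RNA from sorted cells, a change in the share of a cell type and a change in RNA per cell cannot be told apart.

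The respiratory chain of the inner mitochondrial membrane passes electrons from NADH (complex I) and succinate (complex II) through complex III to oxygen at complex IV, also called cytochrome c oxidase. The protons pumped on the way drive ATP synthase. Most subunits are encoded in the nucleus and a few in mitochondrial DNA, and the nuclear ones are often controlled together through the transcription factors NRF1 and NRF2 (GABP), the estrogen-related receptors (ERR) and the coactivator PGC-1alpha. The DA is of interest here because its closure after birth follows the rise in oxygen. In its smooth muscle, mitochondria have been described as oxygen sensors, whereas ECs draw much of their ATP from glycolysis. The array annotation named 0 mitochondrially encoded genes, so the values below are those of nuclear genes.

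The sequences that lie before 4 of these genes are shown because their transcripts were among those that differed between the vessels when replicate number was taken into account, and because they show how unlike such promoters are. They are from RefSeq (GRCr8) and are written in the direction of the gene up to the base before its start, with matches to the searched motifs in capitals. They are chr9:1637494-1637613 (plus strand) for Ndufa11, chr1:186089337-186089456 (minus strand) for Ndufab1, chr9:46417717-46417836 (plus strand) for Cox5b and chr10:81523346-81523466 (minus strand) for Atp5mc1.
Ndufa11: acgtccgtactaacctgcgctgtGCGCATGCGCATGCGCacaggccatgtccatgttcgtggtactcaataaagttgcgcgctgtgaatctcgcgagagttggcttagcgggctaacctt
Ndufab1: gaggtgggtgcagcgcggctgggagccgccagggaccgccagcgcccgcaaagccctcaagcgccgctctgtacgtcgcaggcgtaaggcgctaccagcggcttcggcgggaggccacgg
Cox5b: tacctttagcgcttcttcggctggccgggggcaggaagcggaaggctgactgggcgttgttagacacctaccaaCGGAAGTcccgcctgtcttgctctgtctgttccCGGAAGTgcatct
Atp5mc1: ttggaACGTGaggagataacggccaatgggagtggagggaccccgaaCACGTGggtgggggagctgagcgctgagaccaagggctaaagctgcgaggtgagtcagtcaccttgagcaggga
The capitals in Ndufa11 are a pair of overlapping NRF1 motifs, those in Cox5b are a pair of NRF2 (GABP) motifs (ACTTCCG, found on the other strand), and those in Atp5mc1 are the hypoxia response core ACGTG, which at CACGTG matches on both strands. The stretch of Ndufab1 held no match. Of the other genes that differed over both stages in that way, Cox7b and Sdhb held no match in the windows described below. Ndufa3 held 1 hypoxia core, and Atp5pd and Ndufb9 had no window. The 4 shown do not stand for all of these genes.

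Promoters of the respiratory chain genes held the motifs of mitochondrial regulators more often than other promoters did. Windows from 250 bases before to 50 bases after the start were found for 78 of the 89 genes and searched on both strands. The NRF1 motif lay in 17 windows (21.8%), against 8.81% of the windows of all tested genes and 4.25% of all windows. The NRF2 (GABP) motif lay in 19 (24.4%), against 12.1% and 6.32%. The ERR motif AAGGTCA lay in 11 (14.1%), against 2.98% and 4.61%, and the hypoxia core ACGTG in 23 (29.5%), against 24.7% and 19.3%. These are matches of letters and no test was made of them.

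Before any comparison of groups, the arrays were set beside each other by their replicate number, because the numbers separated the respiratory chain genes more than vessel or stage did. The median deviation of the 86 genes from their own means was 0.13 to 0.34 above 0 on the 4 arrays numbered 1, between -0.12 and 0.04 on those numbered 2, and between -0.27 and -0.08 on those numbered 3. On the array of DA N replicate 1, 78 of the 86 genes lay above their own mean, and on that of aorta N replicate 3 only 8 did. Number 1 was above the others in each of the 4 groups, and in DA F numbers 2 and 3 were level (-0.08 each). The lys spike was highest on number 1 and lowest on number 3 in each group, at 4.53 to 6.17, 4.16 to 4.78 and 3.41 to 3.53. The standard deviation over all probe sets followed the same order, at 2.37 to 2.42, 2.29 to 2.37 and 2.24 to 2.26. The part of these measures in the pattern was not tested. No label says which litters, sorts or array runs share a number. After quantile normalization the medians were 0.05 to 0.27, -0.13 to 0.03 and -0.21 to -0.0046 for the 3 numbers.

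**Figure D1:**
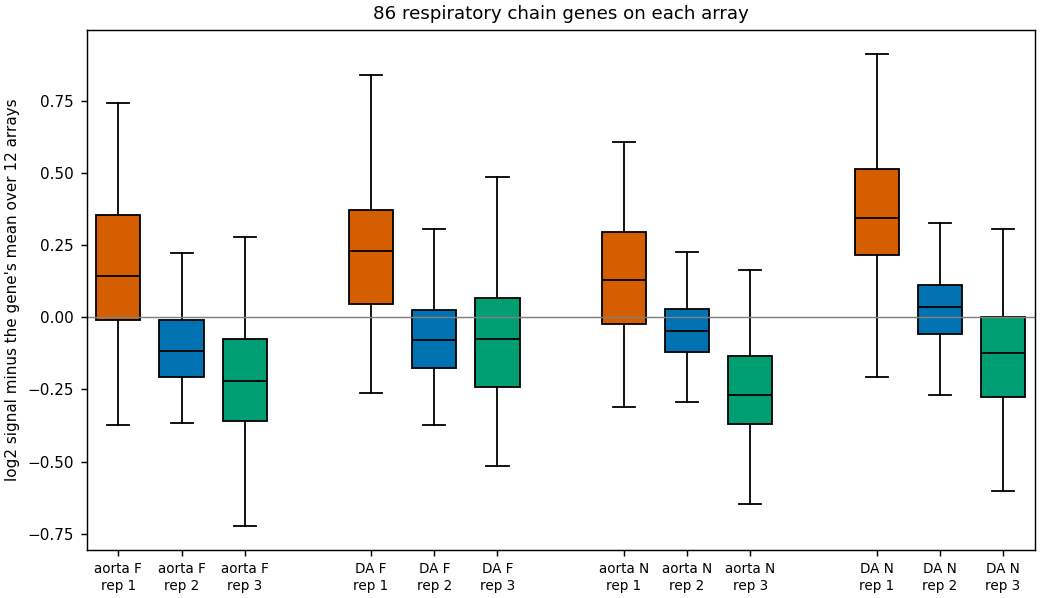
Log2 signal of the 86 tested respiratory chain genes on each of the 12 arrays, after subtraction of each gene's own mean over the 12 arrays. Boxes span the quartiles with the median as a line, whiskers reach the last gene within 1.5 box lengths, points beyond are not drawn, and colours mark the replicate number. The boxes of replicate 1 sit highest in every group, with medians from 0.13 to 0.34.

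Divided into its parts, the variation of a typical respiratory chain gene over the 12 arrays went mostly with the replicate number. The median over the genes was 58.2% of the sum of squares for the number, 6.74% for the vessel and 1.73% for the stage. Over all tested probe sets the medians were 41.4%, 8.19% and 2.20%. The number has more levels than the vessel or the stage, which by itself gives it a larger share, and the shares were not adjusted for this. The number was the largest of these parts in 75 of the 86 genes (87.2%, against 70.6% of all tested probe sets). The vessel was the largest in 9, Atp5mc3, Cox4i2, Cox5b, Ndufa11, Ndufab1, Ndufb9, Ndufs7, Ndufv3 and Sdhb, and the stage in Cox15 and Ndufv1. After quantile normalization the number was the largest in 66 genes, the vessel in 16 and the stage in 4. These are 76.7%, 18.6% and 4.65%, against 65.7%, 27.4% and 6.91% of all tested probe sets. The medians were then 47.3%, 11.3% and 1.91%, against 34.9%, 9.27% and 2.42% over all tested probe sets. At the far end stood Atp5mk, a small membrane subunit of ATP synthase, with 96.0% for the number. Its log2 signal was 8.86, 9.04, 8.91 and 9.03 on the arrays numbered 1 (aorta F, DA F, aorta N, DA N) and lay between 6.18 and 7.12 on the other 8. The genes also moved with each other, with a median pairwise correlation over the 12 arrays of 0.52 as deposited and 0.24 once the means of the numbers were removed. Counts of genes on one side of 0 are therefore not counts of independent events.

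**Figure D2:**
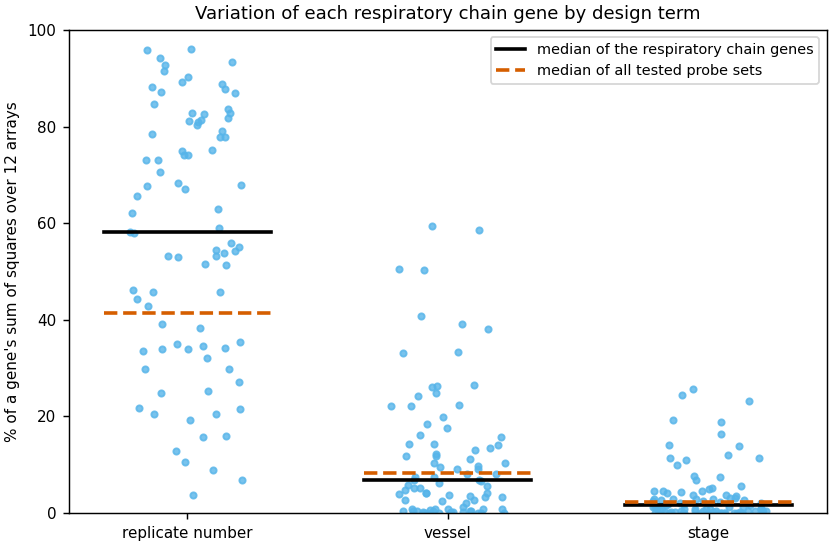
Percentage of each gene's sum of squares over the 12 arrays that goes with replicate number, vessel and stage, with 1 point per respiratory chain gene, the median of these genes (solid line) and the median of all 18690 tested probe sets (dashed line). The median is 58.2% for replicate number, 6.74% for vessel and 1.73% for stage.

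Over both stages, respiratory chain transcripts lay slightly higher in ECs of the DA than in those of the aorta, and no single gene passed the test. Of the 86 genes, 71 had a difference above 0 and 15 below 0, with a median of 0.11 and a range from -0.12 (Ndufa10) to 0.36 (Cox7b). Over all tested probe sets 49.9% were above 0, against 82.6% of these genes, and the median was -0.00041. The largest difference, in Cox7b, was 1.28-fold. limma called 0 of the 86 genes at an adjusted p under 0.05 (Benjamini-Hochberg over 18690 probe sets), where 3.19% of all tested probe sets were called higher and 4.93% lower. At an unadjusted p under 0.05, 6 genes were higher (6.98%, against 8.02% of all tested probe sets) and 0 were lower (10.2% of all). The methods' t-test over the same arrays gave 8 higher and 0 lower unadjusted, against 9.13% and 11.6% of all tested probe sets. After Benjamini-Hochberg it called 2 higher, Ndufa11 (adjusted p = 0.0389) and Ndufab1 (adjusted p = 0.0421), and 0 lower, against 3.84% and 5.74% of all.

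The data limit how large a vessel difference could have been missed. In 84 of the 86 genes the 95% confidence interval of the difference lay inside 2-fold in either direction, the exceptions being Atp5mk and Cox7b, and in 72 it lay inside 1.5-fold. The median standard error was 0.13, against 0.12 over all tested probe sets. The median difference of 0.11 lay between 0.05 and 0.17 when any 1 array or the arrays of 1 replicate number were left out. Without aorta F replicate 3, DA F replicate 1, aorta N replicate 3 or DA N replicate 1 it was 0.07, 0.06, 0.06 and 0.05. The lowest differences after that of Ndufa10 were -0.11 in Cox11 and -0.08 in Ndufa7.

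The complexes differed little in this respect. All 15 ATP synthase subunits had a difference above 0 (median 0.12, from 0.04 in Atp5mg to 0.33 in Atp5mc1), and so did 13 of the 14 tested complex IV subunits (median 0.16, down to -0.00069 in Cox6a2). Of the complex I subunits, 5 of the 6 core ones (median 0.11) and 21 of the 26 others (median 0.11, from -0.12 in Ndufa10 to 0.33 in Ndufa11) were above 0. Complex III stood at 6 of 7 (median 0.11, with Uqcrq, a small subunit, highest at 0.27 and Uqcrfs1, the Rieske iron-sulfur protein, lowest at -0.02). Among the 4 genes of complex II, Sdhb and Sdhc were at 0.22 and 0.12, and Sdha and Sdhd at -0.04 and -0.0046. The assembly factors build the complexes but are not part of them. Of the 6 for complex IV, 4 were above 0 with a median of 0.01, and the lowest was Cox11, a copper chaperone, at -0.11. The 3 for complex II had a median of -0.05 and the 3 for complex I of 0.11. Atp5if1, the inhibitor of ATP synthase, was at 0.22. The tested pseudogene, Ndufs6-ps1, was at 0.0090.

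**Figure D3:**
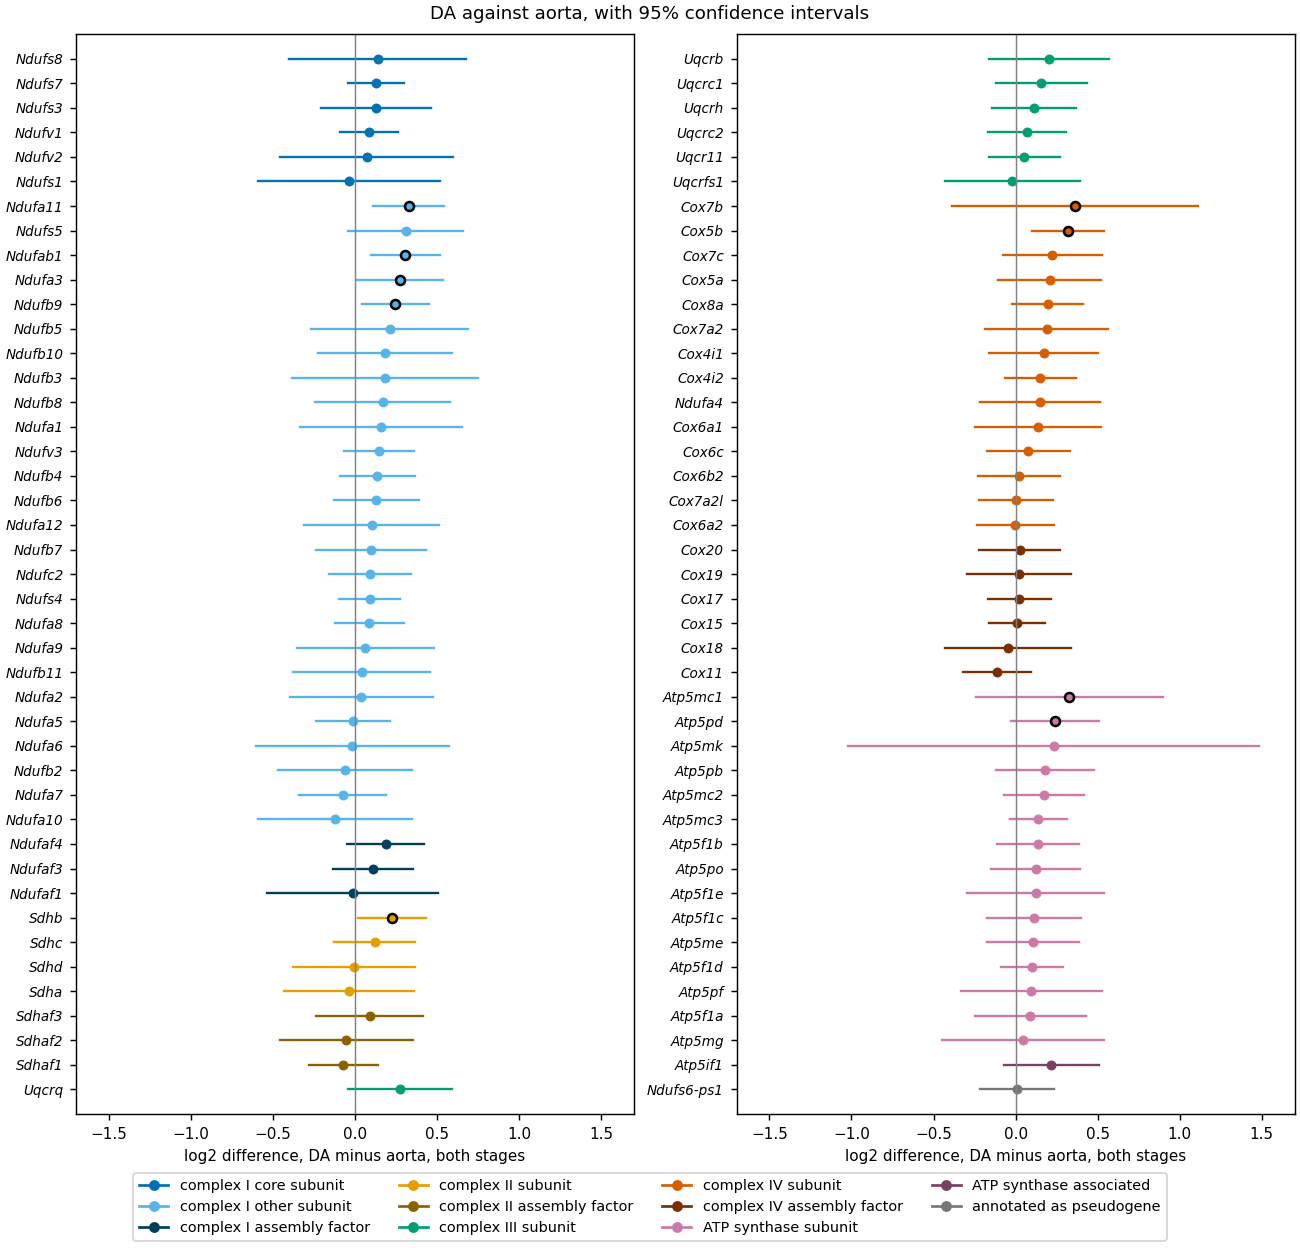
Log2 difference of the DA against the aorta over both stages for each of the 86 tested genes, grouped and coloured by complex, with bars for the 95% confidence interval from limma without the replicate block. Symbols ringed in black mark the 9 genes with an adjusted p under 0.05 when replicate number was a block. 71 points lie to the right of 0 and 15 to the left.

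With replicate number as a block in the fit, which compares arrays of the same number, 9 of the 86 genes rose in the DA over both stages and 0 fell. That is 10.5% of the genes, near the 7.71% of all tested probe sets that were called higher in the same fit, while 10.1% of all were called lower. In order of p they were Ndufa11, Ndufab1, Cox7b, Cox5b, Ndufb9, Sdhb, Ndufa3, Atp5mc1 and Atp5pd. The median standard error fell from 0.13 to 0.081 with the block. The calls depended on the arrays. With the block kept and 1 array left out, between 2 and 9 genes were called, and the count moved by over 1.5 times without any of the arrays other than aorta F replicate 2 (6 genes), DA F replicate 1 (9) and DA F replicate 2 (7). Leaving out replicate number 1, 2 or 3 as a whole left 0, 4 and 0. Ndufa11 and Ndufab1 were called whichever 1 of the 12 arrays was left out, Cox7b in 5 of these 12 settings, Cox5b in 4, Atp5mc1 in 3, Ndufa3 and Ndufb9 in 2, and Sdhb and Atp5pd in 1. Some of these settings also called genes outside the 9, such as Ndufs5 and Uqcrq.

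Ndufa11, a subunit of the membrane arm of complex I, was the most regular. Its log2 signals were 8.86, 9.00 and 8.62 in aorta F (replicates 1 to 3), 9.41, 9.09 and 9.04 in DA F, 8.94, 8.96 and 8.84 in aorta N, and 9.37, 9.10 and 9.18 in DA N. Every DA array was above every aortic array in F and again in N. The difference was 0.33 (standard error 0.0999, 1.25-fold), with an adjusted p of 0.0713 by limma without the block and 0.0127 with it. Ndufab1, the mitochondrial acyl carrier protein, which is also a subunit of complex I, had signals of 9.17, 9.43 and 9.00 in aorta F, 9.43, 9.50 and 9.38 in DA F, 9.17, 9.21 and 8.99 in aorta N, and 9.69, 9.43 and 9.37 in DA N. The groups did not overlap in N. In F they did, with aorta replicate 2 level with DA replicate 1 and above DA replicate 3. The difference was 0.31 (standard error 0.097), with an adjusted p of 0.0827 without the block and 0.0144 with it (limma). Its adjusted p was under the threshold without the block when aorta F replicate 2 was left out (0.0459).

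The other pair of complex I genes called with the block were less even. Ndufb9, a subunit of the membrane arm, had signals of 8.72, 8.89 and 8.54 in aorta F and 8.93, 8.89 and 8.99 in DA F, then 8.72, 8.73 and 8.47 in aorta N and 8.89, 9.09 and 8.76 in DA N. The N groups stood apart, and the replicate 2 arrays of F were level. Over both stages the difference was 0.24 (limma adjusted p = 0.170 without and 0.0386 with the block). Ndufa3, a small accessory subunit, had signals of 7.94, 8.20 and 8.10 in aorta F and 8.17, 8.62 and 8.80 in DA F, against 8.08, 8.38 and 8.35 in aorta N and 8.30, 8.23 and 8.59 in DA N. Here replicate 1 was the lowest in 3 of the 4 groups and not the highest, and in N the replicate 2 arrays went the other way. The difference was 0.28 over both stages (limma adjusted p = 0.241 without and 0.0397 with the block).

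Of the complex IV genes, Cox5b is a subunit of the enzyme's matrix side. Its signals were 7.58, 7.42 and 7.66 in aorta F, 7.93, 7.39 and 7.83 in DA F, 7.41, 7.56 and 7.34 in aorta N, and 7.94, 7.88 and 7.93 in DA N. All 3 DA N arrays were well above the aorta N arrays, and the F groups overlapped. The change of the vessel difference from F to N did not pass limma's test. The difference over both stages was 0.32 (limma adjusted p = 0.0841, and 0.0269 with the block), and without DA F replicate 2 it was 0.40 and passed without the block as well (adjusted p = 0.0169). Cox7b, a small membrane subunit, had signals of 9.49, 8.55 and 8.30 in aorta F, 9.93, 8.19 and 8.51 in DA F, 9.15, 7.80 and 8.10 in aorta N, and 9.66, 8.57 and 8.70 in DA N. Replicate 1 was the highest array of each group, and the groups overlapped in both stages. Its difference of 0.36 had a standard error of 0.35 without the block and of 0.0995 with it, and the adjusted p changed from 0.709 to 0.0260 (limma).

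Sdhb, the iron-sulfur subunit of succinate dehydrogenase, was the complex II gene among the 9. Its signals were 8.67, 8.41 and 8.34 in aorta F, 8.60, 8.53 and 8.57 in DA F, 8.54, 8.47 and 8.22 in aorta N, and 8.89, 8.82 and 8.58 in DA N. The N groups did not overlap and the F groups did. Over both stages the difference was 0.22 (limma adjusted p = 0.224 without and 0.0392 with the block). Atp5mc1, 1 of the 3 genes for subunit c of the ATP synthase rotor, had signals of 9.12, 8.69 and 8.27 in aorta F, 9.93, 8.92 and 8.46 in DA F, 9.00, 8.84 and 8.31 in aorta N, and 9.55, 8.87 and 8.46 in DA N. The order of the replicates was the same in each group, and the DA array was above the aortic array of its own number in 6 of 6 pairs. The difference was 0.33 (limma adjusted p = 0.624 without and 0.0438 with the block). Atp5pd, a subunit of the peripheral stalk, had signals of 9.52, 9.15 and 8.93 in aorta F, 9.44, 9.26 and 9.38 in DA F, 9.50, 9.21 and 9.11 in aorta N, and 9.88, 9.41 and 9.51 in DA N. The groups overlapped in both stages, and the difference was 0.24 (limma adjusted p = 0.339 without and 0.0461 with the block).

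**Figure D4:**
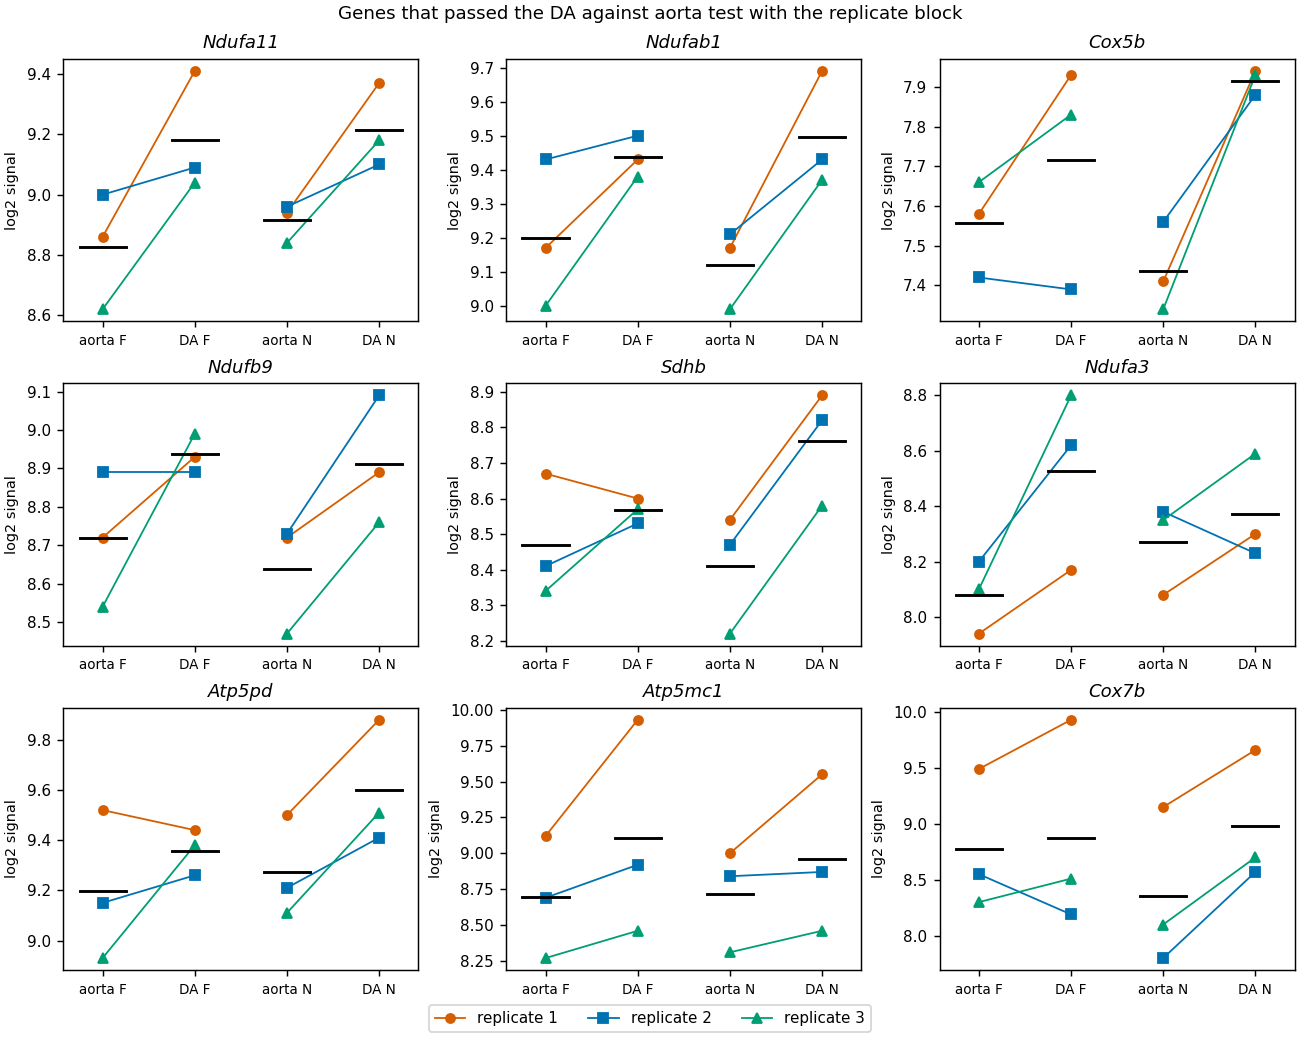
Log2 signal on each of the 12 arrays for the 9 genes with an adjusted p under 0.05 for the DA against the aorta over both stages when replicate number was a block. Points are arrays, lines join the DA and aortic arrays of the same number and stage, and black bars are group means. In Ndufa11, Ndufab1 and Atp5mc1 all 6 lines go up from aorta to DA.

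Taking the 6 pairs of DA and aortic arrays with the same number and stage, the respiratory chain genes leaned to the DA in each. In F, 49, 51 and 69 of the 86 genes were higher in the DA for replicates 1, 2 and 3. These are 57.0%, 59.3% and 80.2%, against 49.4%, 47.2% and 51.0% of all tested probe sets. The median differences were 0.07, 0.04 and 0.16, against -0.0049, -0.017 and 0.0074 over all. In N the counts were 72, 59 and 64, or 83.7%, 68.6% and 74.4%, against 49.9%, 51.7% and 47.5% of all tested probe sets. The medians were 0.21, 0.07 and 0.12, against -0.0010, 0.0086 and -0.017 over all. The genes higher in the DA in 6 of 6 pairs were Atp5if1, Atp5mc1, Atp5mk, Cox6c, Cox7c, Ndufa11, Ndufab1 and Uqcrc1. These 8 are 9.30% of the genes, against 10% of all tested probe sets. The genes lower in 6 of 6 pairs numbered 0, against 12.8% of all tested probe sets.

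In the F group alone, 65 of the 86 genes (75.6%) lay above 0 and 21 below, where 49.5% of all tested probe sets were above 0. The median was 0.10, against -0.0030 over all tested probe sets. The range was from -0.34 (Ndufaf1, a complex I assembly factor) to 0.45 (Ndufa3). After these came Ndufa10 at -0.24 and Cox18, which inserts the Cox2 protein into the membrane, at -0.15, and Atp5mc1 at 0.41 and Ndufa11 at 0.36. Without DA F replicate 1 the median was -0.03, and without aorta F replicate 2, aorta F replicate 3 or all of replicate number 3 it was 0.06, 0.02 and 0.05. Without aorta F replicate 1 or DA F replicate 2 it was 0.19 and 0.15. limma called 0 genes, where 1.49% of all tested probe sets were called higher and 2.28% lower. Unadjusted, 2 were higher (5.56% of all) and 0 lower (7.62% of all), and the methods' t-test gave 1 in each direction (4.63% and 7.28% of all). With the block Ndufa3 was called (0.45, adjusted p = 0.0318, limma), against 3.94% of all tested probe sets called higher and 6.5% lower, and the call was lost without aorta F replicates 1, 2 or 3, DA F replicates 2 or 3 or aorta N replicate 1. All DA F arrays lay above all aorta F arrays in 4 genes, Cox7c, Ndufa11, Ndufaf4 and Ndufv1 (4.65%, against 7.73% of all tested probe sets), and below them in Cox11 alone (1.16%, against 10.9%). Cox11 had signals of 7.45, 7.43 and 7.33 in the aorta and 7.22, 7.27 and 7.29 in the DA. In N, at 7.60, 7.58 and 7.38 against 7.69, 7.45 and 7.17, the same gene overlapped.

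In the N group, 73 of the 86 genes (84.9%) lay above 0 and 13 below, where 49.4% of all tested probe sets were above 0. The median was 0.14, against -0.0028 over all tested probe sets. The range was from -0.09 (Cox17, a copper chaperone) to 0.62 (Cox7b). After these came Cox11 at -0.08 and Uqcrfs1 at -0.07, and Cox5b at 0.48 and Ndufab1 at 0.38. The median was 0.04 without aorta N replicate 3, 0.03 without DA N replicate 1, 0.24 without aorta N replicate 1 and 0.25 without DA N replicate 3. limma called 0 genes, where 1.26% of all tested probe sets were called higher and 1.87% lower. Unadjusted, 3 were higher (4.48% of all) and 0 lower (6.15% of all), and the methods' t-test gave 3 and 0 (4.38% and 5.53% of all). With the block 3 genes were called higher, Cox7b (0.62, adjusted p = 0.0181, limma), Cox5b (0.48, 0.0393) and Sdhb (0.35, 0.0469), against 2.99% of all tested probe sets, and 0 were called lower (4.28% of all). With 1 array left out this count lay between 0 and 4, and it fell to 0 without aorta N replicate 1 or DA N replicate 3. It moved by over 1.5 times, to 1, without aorta F replicates 1 or 3, aorta N replicates 2 or 3, or DA N replicates 1 or 2. All DA N arrays lay above all aorta N arrays in 8 genes, Atp5mc2, Cox4i2, Cox5b, Ndufa11, Ndufab1, Ndufb9, Ndufv3 and Sdhb (9.30%, against 6.98% of all tested probe sets), and in 0 genes below them (8.3% of all).

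Whether the vessel difference changed at birth was tested as the difference of the 2 vessel contrasts, and no gene passed. limma called 0 of the 86 genes, as it did 0 of all tested probe sets, and 0 were under an unadjusted p of 0.05. With the block there were again 0 called, with 2 higher and 0 lower unadjusted (1.79% and 2.31% of all tested probe sets). The median change was 0.06, against 0.02 over all tested probe sets, and it took both signs when arrays were left out (-0.06 to 0.19). The largest were 0.66 in Ndufaf1, 0.53 in Cox7b and 0.32 in Cox5b at the upper end, and -0.35 in Ndufa3, -0.22 in Ndufa2 and -0.22 in Cox17 at the lower end. For Cox5b the 95% confidence interval ran from -0.12 to 0.76. The interval lay inside 2-fold in 70 of the 86 genes and inside 1.5-fold in 24, so that this comparison limits changes less closely than the vessel comparison does.

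The first 30 minutes of breathing brought no called change in either vessel. In ECs of the DA, 60 genes (69.8%) were above 0 in N against F and 26 below, where 55.4% of all tested probe sets were above 0. The median was 0.05 against 0.02 over all tested probe sets, and the median of the genes was -0.06 without DA N replicate 1. limma called 0 genes, where 0.00535% of all tested probe sets were called higher and 0% lower, and 0 genes were under an unadjusted p of 0.05 by limma (1.21% and 0.792% of all) or by the methods' t-test (1.37% and 0.904% of all). In the aorta, 40 (46.5%) were above 0 and 46 below, where 50.3% of all tested probe sets were above 0. The median of the genes was -0.01 and took both signs when arrays were left out (-0.11 to 0.11). There 0 genes were called (0% of all tested probe sets in either direction) and 0 were under an unadjusted p of 0.05 by limma (1.09% and 0.289% of all), against 1 higher and 0 lower by the methods' t-test (1.4% and 0.647% of all). With array weights, a setting in which noisier arrays count less, Atp5f1b, a catalytic subunit of ATP synthase, was called higher in aorta N (0.27, adjusted p = 0.0375, limma), where 4.78% of all tested probe sets were called higher and 8.25% lower. Its signals were 11.22, 10.80 and 10.84 in F and 11.05, 11.11 and 10.71 in N, and these groups overlap. The array weights were 0.47, 7.22 and 0.92 for aorta F replicates 1 to 3 and 0.78, 12.08 and 0.51 for aorta N. The call with weights therefore rests mostly on replicate 2 of each group. With the block 0 genes were called in both vessels, where 0.0482% of all tested probe sets were called higher in the DA and 0.0161% in the aorta. Unadjusted, the block gave 3 higher and 0 lower in the DA (4.31% and 3.02% of all) and 0 higher and 1 lower in the aorta (2.88% and 1.51% of all). The 95% confidence interval lay inside 2-fold in 83 genes in the DA and in 84 in the aorta.

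Ndufaf1 had the largest difference at birth, in the DA. Its signals were 5.62, 4.99 and 4.30 in DA F and 6.03, 5.38 and 5.43 in DA N, with 5.87, 5.23 and 4.85 in aorta F and 5.68, 5.28 and 4.93 in aorta N. The N array was above the F array of the same number in each of the 3 pairs of the DA, but the groups overlapped. The difference was 0.64, with a 95% confidence interval from -0.09 to 1.38, and the adjusted p with the block was 0.204 (limma). Next in the DA were Ndufa10 at 0.30 and Atp5pd at 0.24, and the lowest were Ndufa3 at -0.16, Ndufb11 at -0.16 and Cox17 at -0.15. In the aorta the lowest were Cox7b at -0.42, Cox20 at -0.27 and Atp5mk at -0.20, and the highest Ndufaf4 at 0.23, Ndufa3 at 0.19 and Cox7c at 0.18. None of these passed limma's test. Ndufaf1 was above the lys spike on 11 of the 12 arrays.

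Cytochrome c oxidase has subunits that come in a common and a tissue form, and each form was followed on its own probe set. Cox4i2, a form of subunit 4 known from lung and described as responsive to oxygen, had group means of 5.22 ± 0.05 in aorta F, 5.31 ± 0.27 in DA F, 5.18 ± 0.04 in aorta N and 5.39 ± 0.15 in DA N (SD, n = 3). The DA N arrays, at 5.23, 5.43 and 5.52, were above those of aorta N, at 5.18, 5.15 and 5.22, and the vessel difference over both stages was 0.15 (limma adjusted p = 0.509). Cox4i1, the common form, was at 9.76 ± 0.39, 9.81 ± 0.11, 9.57 ± 0.33 and 9.86 ± 0.27 in the same order (SD, n = 3), a difference of 0.17. Cox6a1 and Cox6a2, the latter the heart and muscle form, differed by 0.14 and -0.00069, with intervals from -0.25 to 0.52 and from -0.23 to 0.23. Cox7a2 and Cox7a2l, a relative of Cox7a that takes part in supercomplexes, differed by 0.19 and 0.0033. Cox8a was at 0.20, with an interval from -0.02 to 0.41, and its muscle form Cox8b, below the mean of the lys spike, was not tested and lay between 4.02 and 4.88 on all arrays. Cox6b2, known from testis, was at 0.02, and Ndufa4, a subunit first assigned to complex I and since then to complex IV, at 0.15. Cox4i2 and Cox6a2 were above the lys spike on 10 of the 12 arrays. Over all 12 arrays none of the tested genes among these was called by limma in any comparison, with or without the block. Cox8a was called over both stages with the block kept and aorta F replicate 2 left out (0.24, adjusted p = 0.0405, limma).

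The 3 genes for subunit c of ATP synthase encode the same mature protein and differ in their leader peptides and control. All 3 leaned to the DA over both stages, Atp5mc1 by 0.33, Atp5mc2 by 0.17 and Atp5mc3 by 0.14. Their scatter was unequal. In DA F the standard deviation was 0.75 in Atp5mc1, 0.33 in Atp5mc2 and 0.07 in Atp5mc3 (n = 3). The interval for Atp5mc1 accordingly ran from -0.24 to 0.90, and for Atp5mc3 from -0.04 to 0.31. Of the succinate dehydrogenase genes, Sdha, the flavoprotein, had an interval from -0.43 to 0.36, and Sdhd, a membrane anchor, from -0.38 to 0.37.

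**Figure D5:**
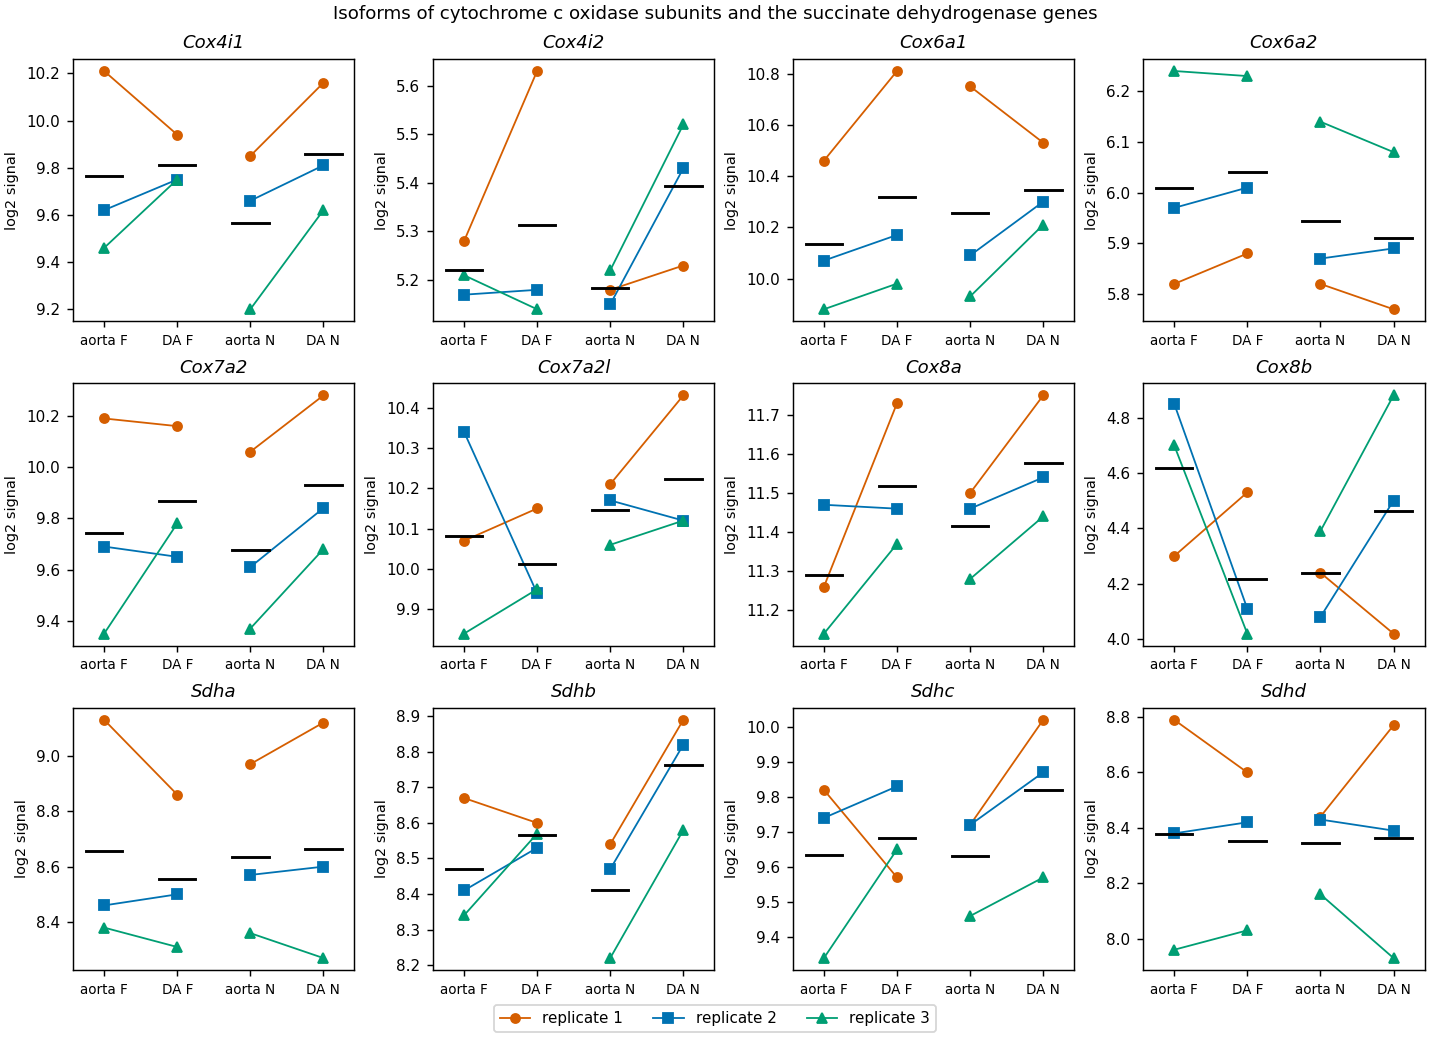
Log2 signal on each of the 12 arrays for subunit forms of cytochrome c oxidase and the 4 succinate dehydrogenase genes. Points are arrays, lines join arrays of the same replicate number and stage, black bars are group means, and each panel has its own axis, so levels are not compared between genes. In Sdha and Sdhd the means of the 4 groups lie close together (8.56 to 8.66 in Sdha) while replicate 1 is above replicates 2 and 3.

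Other genes of mitochondrial function were read beside the respiratory chain over both stages. Of 71 genes of the mitochondrial ribosome, which translates the mitochondrially encoded subunits, 59 were above 0 and 12 below, with a median of 0.11 like that of the respiratory chain. limma called 2 of the 71 higher, Mrpl54 (0.43, adjusted p = 0.0319) and Mrps26 (0.28, adjusted p = 0.0485), and 0 lower. Of all tested probe sets 3.19% were called higher and 4.93% lower. With the block 11 of the 71 were called higher and 2 lower, against 7.71% and 10.1% of all tested probe sets. The 10 tested genes of the citric acid cycle were split, 5 above and 5 below 0 (median 0.02), with 0 called, and with the block Mdh2, the mitochondrial malate dehydrogenase, was called higher (0.22, adjusted p = 0.0276). Of the 12 regulators of mitochondrial biogenesis, 5 were above and 7 below 0 (median -0.06). Polg2, the accessory subunit of the mitochondrial DNA polymerase, fell by 0.63 (adjusted p = 0.00648, limma). A list of assembly factors, most of them with other names, stood at 11 above and 11 below 0 (median 0.0038). It includes Sdhaf1, Sdhaf2 and Sdhaf3, the complex II factors already counted among the respiratory chain genes. Electron carriers and exchangers stood at 7 and 4 (median 0.06), with 0 called in either list.

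Markers of other cells moved between the vessels too, and their part in the differences of the respiratory chain genes was not tested. Of the 7 smooth muscle markers, 3 rose in the DA over both stages (limma), Actg2 by 1.52, Tagln by 1.03 and Acta2 by 0.58. The summed signal of the 7 on the linear scale was 1997 to 2338 in aorta F and 3094 to 3254 in DA F, then 2140 to 2416 in aorta N and 3167 to 4073 in DA N. Of the 7 pericyte markers, 6 were tested and Cspg4 and Pdgfrb rose, by 0.79 and 0.34. The sums of the 7 were 6846 to 7621, 7873 to 8146, 7095 to 7196 and 8257 to 8586 in the same order. Most of each sum came from Rgs5, with group means of 12.68 to 12.92. Rgs5 differed by 0.19 over both stages (limma adjusted p = 0.136). The 9 endothelial markers were above the mean of the spike in every group. In F their sums were 20501 to 22287 in the aorta and 19277 to 20025 in the DA. In N the sums were 21081 to 22545 in the aorta and 19264 to 20762 in the DA. Over both stages 2 of the 9 lay above 0 and 7 below, and Cldn5, a tight junction protein, fell by 0.62. Tissues rich in mitochondria were represented by cardiomyocyte markers, of which 8 of 10 named were tested and 7 of the 8 lay below 0. Of the brown adipocyte list, 3 of 5 named were tested, Adipoq, Plin1 and Fabp4, and all 3 lay below 0. These 3 are not specific to brown adipocytes. Ucp1, Cidea and Elovl3 of the same list were not tested, so the share of brown adipocytes was not examined. Tnnt2, the cardiomyocyte troponin T, fell by 0.70, and Adipoq, of adipocytes, fell by 0.80 (limma). Of the 5 tested fibroblast markers Col1a2 rose by 0.30 and Col1a1 fell by 0.48, of the 3 tested leukocyte markers Cd14 fell by 0.57, and of the 2 tested erythroid markers 0 were called over both stages by limma, with 0 also under the block. In N alone Hbb, a globin of red cells, differed by -1.17 (limma adjusted p = 0.150 without and 0.0390 with the block), and in F by 0.27. The summed signal of the cardiomyocyte markers was 419 to 475 in aorta F, 384 to 424 in DA F, 433 to 549 in aorta N and 342 to 449 in DA N.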

How the data were processed

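Per the labels, total RNA of sorted ECs was hybridized to 1 array per sample. The authors deposited 1 log2 signal for each probe set and array, already brought to a common level. Their software for this step is not given in the sources here, and the values were used unchanged. Array medians were 5.63 to 5.76. Of 26468 probe sets, 15307 carried 1 symbol, 323 several and 10838 none, by the platform annotation with symbols updated through RefSeq. Tested were the 18690 probe sets whose mean reached that of the lys spike (4.44).

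limma 3.58.1 (R 4.3.3) was fitted to the 4 group means of 12 arrays, with Benjamini-Hochberg adjustment over all tested probe sets. Precision is limited by there being 3 arrays in each group. The fit was run on simulated arrays with added changes larger than the differences of these genes over both stages. That run does not cover differences as small as these. The respiratory chain genes, gene lists, markers and tests were chosen with earlier results of these data known. Genes named were those called in any comparison or with the block, the 3 highest and 3 lowest differences of each comparison, subunit forms, the 3 largest standard deviations and called genes of other lists. Genes that follow from counts (pairs, non-overlapping groups, parts of variation, complexes), and Atp5if1, Uqcrq and the marker genes, were named after their values were seen.

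Deviations of each array from its own group's mean were correlated across probe sets between arrays of different groups. The correlations were 0.54 to 0.82 for number 1, 0.10 to 0.30 for number 2 and 0.39 to 0.74 for number 3. Between different numbers they were -0.74 to 0.37, a range that holds that of number 2. With group means removed, positive values for the same number force lower values between different numbers. The numbers are those of the titles and were also fitted as a block. Alternatives were the methods' t-test, array weights, limma-trend, quantile normalization, median centring, other filters, the mean of a gene's probe sets and arrays left out. Promoter windows are from RefSeq (GRCr8). Some genes are not analysed here.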

Additional observations from a re-analysis of the deposited data

How the results depend on the processing

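limma called 0 respiratory chain genes in each of the 6 comparisons without the replicate block, and this held under limma-trend, median centring, no filter on low values and the mean of a gene's probe sets. With the methods' t-test unadjusted there were 1 higher and 1 lower in F, 3 higher in N, 8 higher over both stages and 1 higher in the aorta at birth, and after Benjamini-Hochberg 2 higher over both stages. The replicate block called 1 respiratory chain gene higher for F, 3 for N and 9 for the stages together, and changed no other call of these genes. Combined with quantile normalization, a setting chosen after seeing the data, the block gave 2, 4 and 11. Quantile normalization alone gave 3 over both stages (Ndufa11, Ndufab1 and Sdhb), and a filter on the spike on all 12 arrays gave 1 (Ndufa11). Array weights gave 1 in F (Ndufa3) and 1 in the aorta at birth (Atp5f1b). Leaving out arrays without the block gave 0 to 1 over both stages (Cox5b without DA F replicate 2, Ndufab1 without aorta F replicate 2) and 0 elsewhere. With the block kept, also chosen after seeing the data, the counts were 0 to 1 for F, 0 to 4 for N and 0 to 9 for the stages together. The share of all tested probe sets was not counted with quantile normalization, the filter on all 12 arrays, array weights in F or arrays left out. The counts of genes under those settings therefore cannot be set beside a general rate of calls.

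The median over the genes stayed above 0 for the DA against the aorta over both stages under every setting run. With arrays left out it lay between -0.03 and 0.19 in F, 0.03 and 0.25 in N, -0.06 and 0.17 at birth in the DA, -0.11 and 0.11 at birth in the aorta and -0.06 and 0.19 for the difference of the vessel contrasts. Signs of uncalled genes turned. With array weights Cox17 in N was at 0.067, Ndufb11 at birth in the DA at 0.017 and Atp5mk at birth in the aorta at 0.014. With arrays left out, differences ran in F from -0.45 to 0.13 in Ndufa10, from -0.28 to 0.040 in Cox18 and from -0.00056 to 0.73 in Atp5mc1. In N they ran from -0.21 to 0.048 in Cox11 and from -0.34 to 0.17 in Uqcrfs1. Over both stages they ran from -0.26 to 0.062 in Ndufa10 and from -0.23 to 0.028 in Ndufa7. At birth in the DA they ran from -0.36 to 0.0014 in Ndufb11 and from -0.067 to 0.64 in Ndufa10, and in the aorta from -0.97 to 0.45 in Atp5mk. For the difference of the vessel contrasts they ran from -0.53 to 0.13 in Ndufa2. The cause was not tested. The number of arrays limits the precision, with standard errors over both stages of up to 0.58 (Atp5mk) without the block.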
